A study of Mus musculus with 12 samples.

Results

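The genes described here are 10 members of the cell's antioxidant programme, most of them known targets of the transcription factor NRF2, in hind limb skeletal muscle of αB-crystallin/HspB2 deficient mice. They were taken by symbol, from a list drawn up with earlier results of these data known. They are Nqo1, Hmox1, Gclc, Gclm, Txnrd1, Srxn1, Cat, Sod2, Mt1 and Mt2, and all 10 were found among the 22923 gene symbols measured. RNA sequencing was carried out on 12 muscle samples from male mice of the FVB strain at 22 weeks of age, in 4 groups of 3 that the study's methods call independent samples. The KO animals carried a global deletion of both Cryab, which encodes αB-crystallin, and its neighbour Hspb2, so the loss was present in every tissue and not in muscle alone. Their littermate controls, titled Flox and labelled here WT, kept both genes. Each genotype was fed either normal chow, the control diet, or a high fat diet. The comparisons asked what the diet did within each genotype, what the deletion did on each diet, and whether the response to diet differed between the genotypes.

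NRF2, encoded by Nfe2l2, is held in the cytoplasm and marked for degradation by KEAP1 while the cell is not stressed. When electrophiles or oxidants modify KEAP1, NRF2 accumulates, pairs with small MAF proteins and binds antioxidant response elements near genes for glutathione synthesis, quinone reduction, thioredoxin recycling and haem breakdown, and BACH1 occupies the same elements as a repressor. Catalase and the mitochondrial superoxide dismutase SOD2 remove hydrogen peroxide and superoxide directly, while metallothioneins bind zinc and copper, scavenge oxidants and are induced through the metal sensor MTF1 and by glucocorticoids. In muscle, contraction, fuel oversupply and infiltrating cells are all sources of oxidants.

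The unit was FPKM, fragment counts scaled to transcript length and library size, and depth was not recorded in the values beyond a relative estimate from the smallest steps, which spanned 1 to 1.36 across the libraries. The 12 libraries had rank correlations of 0.963 to 0.984 and no 2 were identical. Cryab was measured at 412 to 837 FPKM in the 6 WT libraries and at 0.845 to 1.75 FPKM in the 6 KO libraries, and Hspb2 at 81.5 to 103 FPKM against 0.353 to 1.92 FPKM. The genotype field of 6 samples contradicted the sample title, and both deleted genes followed the titles, which set the groups. Muscle fibre markers summed to between 48541 and 87582 FPKM in every library, although Myh4, the fast IIb myosin, was listed at 0 throughout. Some libraries stood apart in markers of other cells. B and T lymphocyte markers summed to 66.1 FPKM in WT chow 2 and to 73.5 and 74.0 FPKM in KO chow 1 and 3, against at most 6.16 FPKM elsewhere. The WT high fat 1 library held Adipoq, the adipocyte hormone gene, at 1.40 FPKM against 21.2 to 224 FPKM in the other 11. Epidermis and hair markers summed to 30.2 FPKM in WT high fat 2, against at most 1.52 FPKM elsewhere. In whole tissue, fewer cells of a type and less RNA per cell cannot be told apart.

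Promoter windows of 3 members are printed here, with matches to the antioxidant or the metal response element marked. Windows from 250 bases before to 50 bases after the start of transcription were read from RefSeq on GRCm38.p6, the build of the reference C57BL/6J mouse and not of FVB. Of the members, 8 had at least 1 entry, in 10 windows. The antioxidant response element was searched on both strands as TGACNNNGC or TGAGNNNGC, and 27.8% of all 32851 windows held a match. The metal response element, the binding letters of MTF1, was searched as TGCACNC or TGCGCNC on both strands and was found in 25.7% of all windows. Forms of the antioxidant element such as TGAGTCAGC contain the AP-1 letters TGAGTCA, so the 2 motifs overlap there. In the Mt1 and Mt2 windows the capitals mark metal response elements, and in the Srxn1 window, shown because it held the most antioxidant response elements of any member, they mark antioxidant response elements.

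Mt1, chr8:94178839-94179138, plus strand: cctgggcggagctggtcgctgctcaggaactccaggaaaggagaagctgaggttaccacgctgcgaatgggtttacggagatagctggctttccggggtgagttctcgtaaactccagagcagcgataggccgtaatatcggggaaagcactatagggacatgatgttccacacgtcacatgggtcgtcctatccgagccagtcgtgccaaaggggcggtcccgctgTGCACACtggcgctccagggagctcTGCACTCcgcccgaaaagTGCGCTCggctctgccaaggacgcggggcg

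Mt2, chr8:94172368-94172667, plus strand: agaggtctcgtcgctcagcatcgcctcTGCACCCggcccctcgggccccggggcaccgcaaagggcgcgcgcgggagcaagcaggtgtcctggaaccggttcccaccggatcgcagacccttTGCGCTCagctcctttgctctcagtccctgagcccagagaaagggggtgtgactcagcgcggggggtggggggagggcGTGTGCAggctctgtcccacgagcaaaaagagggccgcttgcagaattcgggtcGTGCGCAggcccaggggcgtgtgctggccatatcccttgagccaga

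Srxn1, chr2:152105274-152105573, plus strand: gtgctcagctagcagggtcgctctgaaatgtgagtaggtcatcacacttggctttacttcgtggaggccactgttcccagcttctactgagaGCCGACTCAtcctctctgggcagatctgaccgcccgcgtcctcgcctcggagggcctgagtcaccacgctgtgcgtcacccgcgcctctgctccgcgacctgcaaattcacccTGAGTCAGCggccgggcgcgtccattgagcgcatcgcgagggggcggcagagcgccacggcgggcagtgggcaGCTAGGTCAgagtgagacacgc

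Mt1 held 3 metal response elements and no antioxidant response element in this window, and Mt2 held 4 and 1. Srxn1 held 3 antioxidant response elements and 1 metal response element, whereas Gclm held 1 and 3. Txnrd1 had 1 antioxidant response element in 1 of its 3 windows. The windows of Nqo1, Cat and Sod2 held neither motif in these letters. A match is a description of the letters and was not tied to binding in these samples.

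All 10 members were expressed well above the detection limit used for testing, at least 1 FPKM in at least 3 samples, which 11945 genes met. Sod2 had the highest mean over the 12 samples at 109.5 FPKM, followed by Cat at 77.1, Mt1 at 50.8 and Txnrd1 at 47.9 FPKM. Mt2 averaged 27.2 FPKM, Srxn1 18.4, Nqo1 14.6, Gclm 11.3 and Hmox1 10.5 FPKM, and Gclc was lowest at 5.97 FPKM. The spread was very unequal: the highest library exceeded the lowest 7.11 times for Mt2, 4.53 times for Hmox1 and 3.50 times for Mt1, but only 1.30 times for Gclc, 1.31 times for Srxn1 and 1.40 times for Txnrd1. The plot of all members by library shows where these ranges arose.

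**Figure D1:**
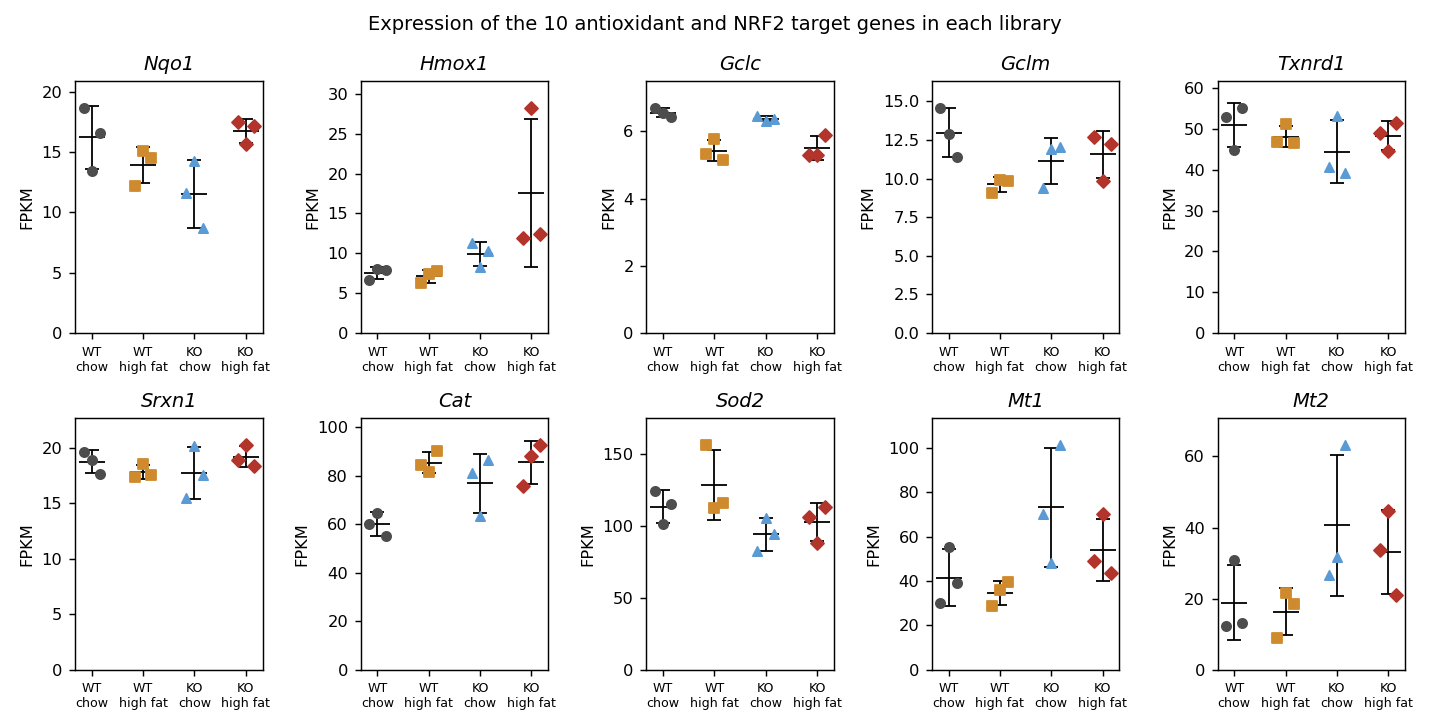
Expression of the 10 members in FPKM on linear axes that start at 0, with 1 point for each of the 3 libraries in each of the 4 groups and a bar and whiskers for the mean and SD. Gclc sat lower in the 6 high fat libraries than in the 6 chow libraries, and Hmox1 sat higher in the 6 KO libraries, with KO high fat 2 at 28.2 FPKM.

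No member passed an adjusted p of 0.05 in any of the 7 comparisons, by limma on log2(FPKM + 1) with Benjamini-Hochberg adjustment over the 11945 genes. In WT mice, high fat diet against chow gave 0 of 10 members at that threshold, where 0.1% of all genes passed. At an unadjusted p of 0.05, 3 members passed, 1 higher and 2 lower, against 8.12% of all genes, and the same number, 3, had groups that did not overlap, against 13.1%. In KO mice the diet comparison called 0 members and 0% of genes after adjustment. At the unadjusted threshold it gave 3 members, 2 higher and 1 lower, against 11.3% of genes, and 3 did not overlap, against 16.9%. Between KO and WT on chow, 0 members were called against 0.0586% of genes, 4 passed the unadjusted threshold, 3 higher and 1 lower, against 16.7%, and 1 did not overlap, against 18.4%. On the high fat diet, 0 members were called against 0.109%, 2 passed unadjusted, both higher in KO, against 16.2%, and 3 did not overlap, against 23.7%. The difference between the diet responses of KO and WT was called for 0 members and 0% of genes, with 2 members at the unadjusted threshold against 6.25% of genes. The diet comparison averaged over genotypes called 0 members against 0.0586%, with 2 at the unadjusted threshold against 13.9% and 1 without overlap between 6 chow and 6 high fat libraries against 0.728%. The genotype comparison averaged over diets called 0 members against 0.862%, with 4 at the unadjusted threshold against 26.5% and 1 without overlap against 2.71%. Leaving out WT chow 2 from that comparison called 1 member, Mt2 (limma adjusted p = 0.049), and leaving out KO chow 2 called 2, Mt1 (adjusted p = 0.037) and Hmox1 (adjusted p = 0.040), all higher in KO. The median log2 fold change of the members was -0.12 for diet in WT, 0.12 for diet in KO, -0.06 for genotype on chow and 0.17 for genotype on high fat, beside medians over all genes of -0.01, 0.03, -0.03 and -0.01. These comparisons share groups, so they are not independent of one another.

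**Figure D2:**
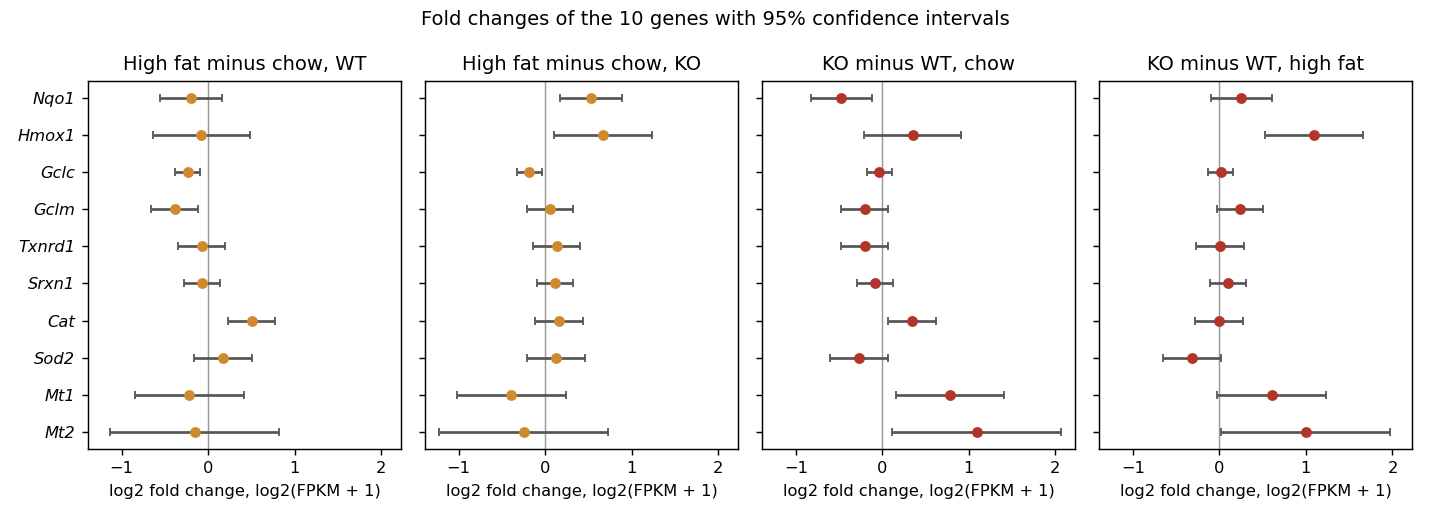
Log2 fold change of each member on the log2(FPKM + 1) scale in 4 comparisons, with 95% confidence intervals from limma. The intervals of Mt1, Mt2 and Hmox1 are the widest, and those of Gclc and Srxn1 the narrowest.

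Glutamate-cysteine ligase makes the rate-limiting step of glutathione synthesis, and Gclc encodes its catalytic subunit. Gclc (chromosome 9, 77754535 to 77794485 on GRCm38, plus strand) lies 27.0 Mb from Cryab on the same chromosome. It was measured at 6.70, 6.54 and 6.44 FPKM in WT chow and at 5.34, 5.77 and 5.16 FPKM in WT high fat. In KO chow it was at 6.46, 6.32 and 6.36 FPKM, and in KO high fat at 5.30, 5.29 and 5.91 FPKM. Every high fat library lay below every chow library, in both genotypes. The log2 fold change on high fat was -0.24 in WT (SE 0.07, limma unadjusted p = 0.00468, adjusted p = 0.25) and -0.19 in KO (SE 0.07, limma unadjusted p = 0.0178, adjusted p = 0.43). Averaged over genotypes it was -0.21 (SE 0.05, limma unadjusted p = 0.000953, adjusted p = 0.15), so the shift was small, uniform in direction and short of the threshold. Between genotypes the groups overlapped, with log2 differences of -0.03 on chow (95% interval -0.18 to 0.11) and 0.02 on high fat (-0.13 to 0.16).

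Gclm (chromosome 3, 122245557 to 122270732, plus strand) encodes the modifier subunit that makes the ligase more efficient. Its values were 14.6, 12.9 and 11.4 FPKM in WT chow and 9.06, 9.93 and 9.86 FPKM in WT high fat, without overlap. KO chow gave 9.39, 11.93 and 12.02 FPKM and KO high fat 12.7, 9.85 and 12.2 FPKM, so the diet groups of the KO overlapped. The log2 fold change on high fat was -0.39 in WT (SE 0.12, limma unadjusted p = 0.00887, adjusted p = 0.32) and 0.05 in KO (SE 0.12, adjusted p = 0.85). The difference between these responses was 0.44 (SE 0.17, limma unadjusted p = 0.0265, adjusted p = 0.73), which did not pass. Across the 12 libraries the levels of the subunits gave a Pearson r of 0.53 (permutation p = 0.0773) and a Spearman rho of 0.48 (permutation p = 0.121), on log2(FPKM + 1). With 2 such relations tested, the adjusted values were 0.0773 and 0.121. Without the 2 libraries farthest from the median of Gclc, r was 0.39 (permutation p = 0.263), and over deviations from the group means it was 0.24.

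Nqo1 (chromosome 8, 107388225 to 107403206, minus strand) encodes the quinone reductase that is the usual reporter of NRF2 activity. It was measured at 18.6, 13.5 and 16.6 FPKM in WT chow and at 12.2, 15.1 and 14.5 FPKM in WT high fat, which overlapped. KO chow libraries were at 11.6, 14.3 and 8.68 FPKM, with KO chow 2 above WT chow 2, so these groups overlapped. KO high fat libraries were at 17.5, 15.6 and 17.2 FPKM. All 3 KO high fat values lay above all 3 KO chow values and above all 3 WT high fat values. The log2 fold change on high fat was 0.53 in KO (SE 0.16, limma unadjusted p = 0.00752, adjusted p = 0.40) and -0.20 in WT (SE 0.16, adjusted p = 0.83). KO minus WT was -0.47 on chow (SE 0.16, limma unadjusted p = 0.0136, adjusted p = 0.28) and 0.25 on high fat (SE 0.16, adjusted p = 0.48). The difference between the diet responses was 0.73 (SE 0.23, limma unadjusted p = 0.00871, adjusted p = 0.64). Without the 3 chow libraries that carried lymphocyte markers, 2 of them KO, the diet difference in KO was 0.22, an alternative added after the data were seen. KO chow 2 alone then stood for KO chow, with the spread assumed to be that of the other groups, so no p is given. Leaving out KO chow 3 moved the chow difference between genotypes to -0.30 (adjusted p = 0.62). In library order, muscle fibre markers summed to 87582, 62897 and 78504 FPKM in WT chow and 57074, 75285 and 48541 FPKM in KO chow. The sums were 85202, 73445 and 68375 FPKM in WT high fat and 77205, 70686 and 81048 FPKM in KO high fat. The part of fibre content in the Nqo1 differences was not tested.

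Hmox1 (chromosome 8, 75093621 to 75100589, plus strand) encodes haem oxygenase 1, which degrades haem to biliverdin, iron and carbon monoxide and is abundant in macrophages that clear red cells. It had the lowest genotype p of the members. The values were 6.71, 8.02 and 7.91 FPKM in WT chow and 6.23, 7.34 and 7.74 FPKM in WT high fat. In KO chow they were 11.3, 8.28 and 10.3 FPKM, and in KO high fat 11.97, 28.2 and 12.4 FPKM. Every KO library exceeded every WT library, on either diet, and KO high fat 2 was more than any other. KO minus WT on high fat was 1.09 on the log2 scale (SE 0.26, limma unadjusted p = 0.00137, adjusted p = 0.092), on chow 0.35 (SE 0.26, adjusted p = 0.45) and averaged over diets 0.72 (SE 0.18, limma unadjusted p = 0.00221, adjusted p = 0.065). High fat minus chow in KO was 0.66 (SE 0.26, limma unadjusted p = 0.0254, adjusted p = 0.43), and in WT -0.08 (SE 0.26, adjusted p = 0.96). Leaving out KO high fat 2 lowered the difference on high fat to 0.71, and leaving it out together with WT high fat 1 gave 0.63 (adjusted p = 0.32), in an alternative added after the data were seen. Without KO high fat 2 the diet difference in KO was 0.28.

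Macrophage markers, like Hmox1, were higher in KO when averaged over diets. The 10 markers, all detected and none at 0, summed to 179 to 314 FPKM in WT chow and 140 to 214 FPKM in WT high fat, against 285 to 442 FPKM in KO chow and 244 to 532 FPKM in KO high fat. All 10 were higher in KO at an unadjusted p of 0.05 when averaged over diets, where 26.5% of all genes passed in either direction. On high fat 8 of 10 were higher, against 16.2% of all genes, and on chow 2 of 10, against 16.7%. Cd68, a lysosomal protein of macrophages, was at 40.1 FPKM in KO high fat 2, against 20.5 and 20.7 FPKM in the other KO high fat libraries and 3.11, 7.54 and 11.6 FPKM in WT high fat. The library with the most Hmox1 was thus also the library with the most macrophage marker RNA. KO chow 3, with a sum of 442 FPKM, had Hmox1 at 10.3 FPKM. For diet in KO the log2 fold change of Hmox1 was 0.66. The macrophage markers ran from -0.46 for Cd163 to 0.78 for Cd68, with a median of -0.10. The part of macrophages in the Hmox1 difference was not tested. By Pearson correlation of log2(FPKM + 1) over the 12 samples, the genes most like Hmox1 were Lgmn (r = 0.958), Tmem8 (r = 0.956) and Hprt (r = 0.955), a description over libraries that share their groups.

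**Figure D3:**
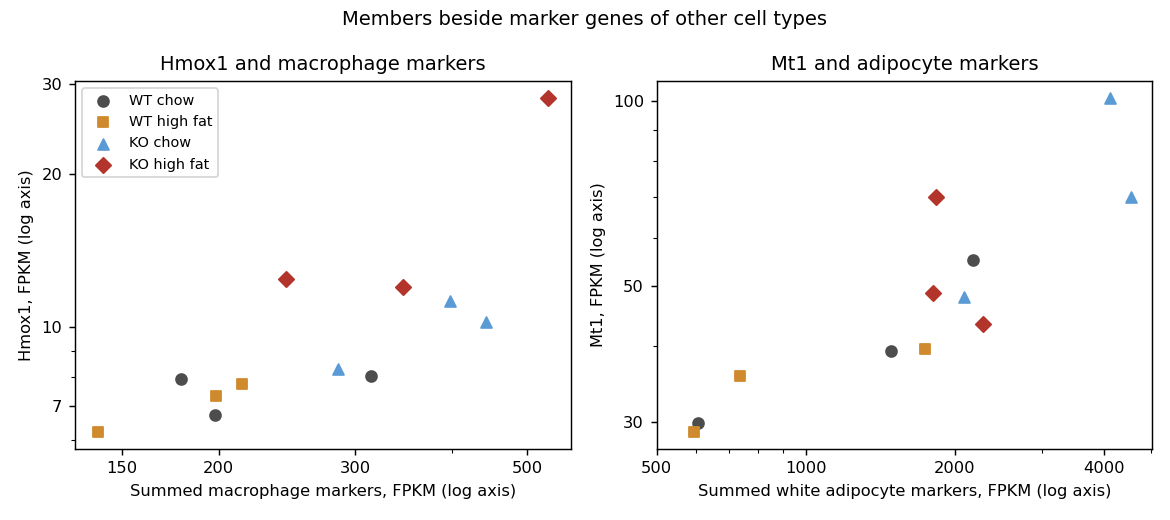
Each point is 1 of the 12 libraries on log axes, with Hmox1 against the summed FPKM of 10 macrophage markers on the left and Mt1 against the summed FPKM of 8 white adipocyte markers on the right. KO high fat 2 has the highest Hmox1 and the highest macrophage sum, 532 FPKM, and KO chow 1 and 3 have the highest adipocyte sums, 4537 and 4129 FPKM.

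Txnrd1 (chromosome 10, 82833951 to 82897712, plus strand), the cytosolic thioredoxin reductase that returns thioredoxin to its reduced form with NADPH, had group means of 50.9 ± 5.49 FPKM in WT chow, 48.1 ± 2.60 in WT high fat, 44.4 ± 7.70 in KO chow and 48.3 ± 3.49 in KO high fat (SD, n = 3 each). Srxn1 (chromosome 2, 152105516 to 152111376, plus strand), the sulfiredoxin that restores overoxidised peroxiredoxins and carries the antioxidant response elements printed above, stood at 18.7 ± 1.02, 17.8 ± 0.616, 17.7 ± 2.37 and 19.2 ± 0.968 FPKM in the same order (SD, n = 3 each). All groups of both genes overlapped. Their lowest unadjusted p over the 7 comparisons was 0.131 for Txnrd1 and 0.196 for Srxn1, by limma. The 95% intervals of the 4 comparisons between groups reached from -0.48 to 0.41 on the log2 scale for Txnrd1 and from -0.29 to 0.32 for Srxn1, which bounds the changes these data allow without showing that there were none.

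Cat (chromosome 2, 103453849 to 103485160, minus strand) encodes catalase, the peroxisomal enzyme that breaks down hydrogen peroxide. It was at 60.3, 64.9 and 55.3 FPKM in WT chow and 84.5, 81.8 and 90.1 FPKM in WT high fat. KO chow was at 81.2, 63.3 and 86.6 FPKM, and KO high fat at 75.7, 88.1 and 92.9 FPKM. The WT diet groups did not overlap, whereas the KO diet groups did. The log2 fold change on high fat was 0.50 in WT (SE 0.13, limma unadjusted p = 0.00205, adjusted p = 0.17) and 0.16 in KO (SE 0.13, adjusted p = 0.60), and averaged over genotypes 0.33 (SE 0.09, limma unadjusted p = 0.00337, adjusted p = 0.19), or 0.21 with quantile normalization. The difference between the responses, -0.34 (SE 0.18, adjusted p = 0.84), did not pass. KO minus WT was 0.34 on chow (SE 0.13, limma unadjusted p = 0.0194, adjusted p = 0.28) and on high fat its 95% interval ran from -0.28 to 0.27. In WT, adipocyte markers ranged over 607 to 2184 FPKM on chow and 594 to 1739 FPKM on high fat, and WT high fat 1, with the lowest sum, had Cat at 84.5 FPKM. Neutrophil markers were higher in WT high fat, at 121 to 1129 FPKM against 2.09 to 26.2 FPKM in WT chow. Erythroid markers were too, at 1574 to 3368 FPKM against 568 to 1020 FPKM. The part of adipocytes, neutrophils or erythroid cells in the Cat difference was not tested.

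Sod2 (chromosome 17, 13006846 to 13040063, plus strand) encodes the manganese superoxide dismutase of mitochondria. It measured 124, 101 and 115 FPKM in WT chow, 156, 113 and 116 FPKM in WT high fat, 82.5, 106 and 94.3 FPKM in KO chow and 106, 87.9 and 113 FPKM in KO high fat. KO and WT overlapped on either diet, and the highest value was that of WT high fat 1. KO minus WT averaged over diets was -0.29 (SE 0.11, limma unadjusted p = 0.0205, adjusted p = 0.13). The diet differences were 0.17 in WT (SE 0.15, adjusted p = 0.86) and 0.12 in KO (SE 0.15, adjusted p = 0.73). For the cytosolic dismutase Sod1, which is no member, KO minus WT averaged over diets was -0.06 (SE 0.08, limma unadjusted p = 0.475).

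The metallothioneins Mt1 and Mt2, small cysteine-rich proteins that buffer zinc and copper, are neighbours on chromosome 8, Mt2 at 94172664 to 94173568 and Mt1 at 94179082 to 94180327 on the plus strand, 5513 bases apart. Mt1 was at 29.98, 55.2 and 39.2 FPKM in WT chow and 28.9, 35.7 and 39.5 FPKM in WT high fat. In KO chow it was at 70.0, 48.0 and 101 FPKM and in KO high fat at 48.8, 70.0 and 43.4 FPKM. The KO and WT groups did not overlap on high fat, and on chow WT chow 2 lay above KO chow 2. KO minus WT for Mt1 was 0.78 on chow (SE 0.29, limma unadjusted p = 0.0194, adjusted p = 0.28), 0.61 on high fat (SE 0.29, limma unadjusted p = 0.0574, adjusted p = 0.32) and, averaged over diets, 0.69 (SE 0.20, limma unadjusted p = 0.00559, adjusted p = 0.081). Without KO chow 3 the chow difference was 0.52 (adjusted p = 0.62).

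Mt2 was at 12.4, 30.9 and 13.2 FPKM in WT chow and 8.91, 21.7 and 18.5 FPKM in WT high fat. KO chow gave 26.7, 31.8 and 63.3 FPKM, and KO high fat 33.8, 44.7 and 21.01 FPKM. The groups overlapped on both diets through WT chow 2 and WT high fat 2. WT high fat 2 is the library with epidermis and hair markers, whose part in its Mt2 value was not tested. KO minus WT was 1.09 on chow (SE 0.44, limma unadjusted p = 0.0321, adjusted p = 0.28), 1.00 on high fat (SE 0.44, limma unadjusted p = 0.0462, adjusted p = 0.30) and 1.04 averaged over diets (SE 0.31, limma unadjusted p = 0.00681, adjusted p = 0.085). Without KO chow 3 the Mt2 difference on chow was 0.72 (adjusted p = 0.62), and without WT high fat 1 that on high fat was 0.64 (adjusted p = 0.72). Without WT high fat 1 and KO high fat 2 the Mt2 difference on high fat was 0.39 (adjusted p = 0.98), in the same added alternative. For neither gene did the diet comparisons approach the threshold, with adjusted p of 0.57 or more in KO and 0.89 or more in WT.

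Both genes varied together. On log2(FPKM + 1) over the 12 libraries, Mt1 and Mt2 gave a Pearson r of 0.90 (permutation p = 7e-05, adjusted 0.00014) and a Spearman rho of 0.895 (permutation p = 0.00033, adjusted 0.00066), for 2 relations tested. Without KO chow 3 and WT high fat 1, the libraries farthest from the median of Mt1, r was 0.81 (permutation p = 0.00494), and over deviations from the group means it was 0.82. The longest run of identical bases between the annotated transcripts of the genes was 20 bases. The 3 genes most like Mt1 over the 12 samples were Rpl3 (r = 0.970), Macf1 (r = 0.969) and Fyn (r = 0.969). White adipocyte markers, 8 genes with none at 0, were higher in KO as well. They summed to 2089 to 4537 FPKM in KO chow and 1810 to 2286 FPKM in KO high fat. Averaged over diets, 7 of 8 were higher in KO at an unadjusted p of 0.05, where 26.5% of all genes passed in either direction. KO chow 3 and KO chow 1, at 101 and 70.0 FPKM of Mt1, had sums of 4129 and 4537 FPKM, and KO high fat 2, also at 70.0 FPKM of Mt1, had a sum of 1833 FPKM. Macrophage markers summed to 442, 397 and 532 FPKM in KO chow 3, KO chow 1 and KO high fat 2. They were at 140 FPKM in WT high fat 1, the library with the lowest Mt1. WT chow 3 had a lower macrophage sum than WT chow 1, 179 against 198 FPKM, with more Mt1. The part of adipocytes or macrophages in the metallothionein difference was not tested. Without the 3 lymphocyte-rich chow libraries KO chow 2 alone stood for KO chow, and its difference from WT chow was 0.47 for Mt1 and 1.25 for Mt2, values with no replicate check from an alternative added after the data were seen.

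**Figure D4:**
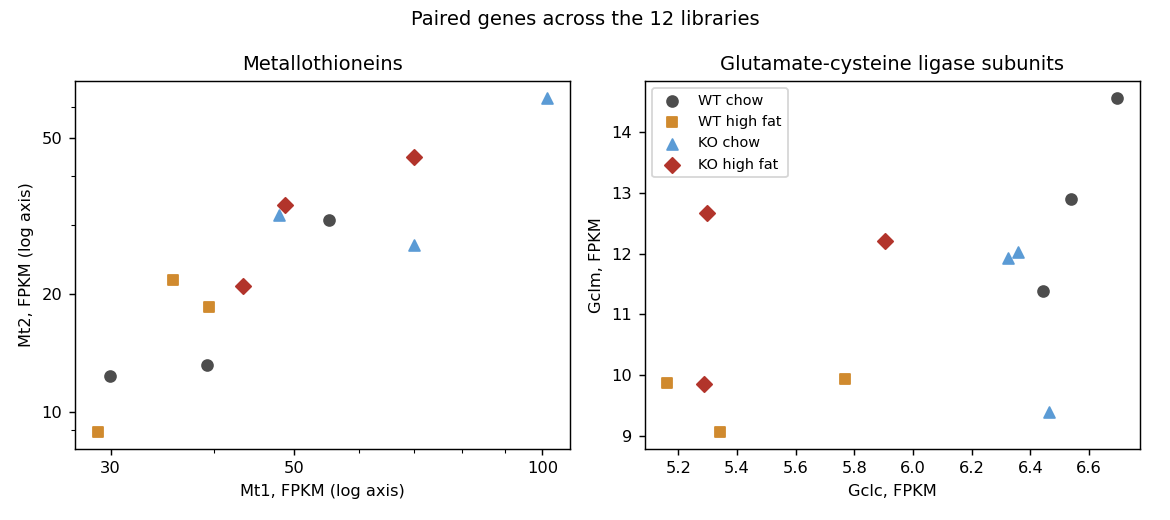
Each point is 1 of the 12 libraries in FPKM. Mt1 and Mt2 (left, log axes) rank the libraries nearly alike, with KO chow 3 at the top for both, whereas Gclc and Gclm (right, linear axes starting above 0) are scattered, with a Pearson r of 0.53 on log2(FPKM + 1).

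No regulator of the pathway passed the test. Nfe2l2 stood at 20.4 to 25.8 FPKM and Keap1 at 24.59 to 35.9997 FPKM over the 12 libraries, Bach1 at 4.85 to 9.37 FPKM and the metal sensor Mtf1 at 2.15 to 3.46 FPKM. Of 10 NRF2 regulators tested, 0 passed the adjusted threshold in any comparison, and their median log2 difference between KO and WT averaged over diets was -0.10. All lists other than the members, regulators included, held 105 genes, of which 103 were tested. They covered antioxidant enzymes and their supply of NADPH as well as 7 superoxide producers and 10 glucocorticoid-responsive genes, which are not antioxidant genes. Those that passed an unadjusted p of 0.05 numbered 11 higher and 1 lower for diet in WT, 7 and 8 for diet in KO, 19 and 11 for genotype on chow, 16 and 7 for genotype on high fat, and 27 and 15 for genotype averaged over diets. The share of all genes at that threshold was 8.12%, 11.3%, 16.7%, 16.2% and 26.5% in the same order, beside 11.7%, 14.6%, 29.1%, 22.3% and 40.8% of the list genes. The lists were chosen with earlier results of these data known, so these shares are a description. The genotype counts include Sesn3, which met the filter only through the KO, so its part in them is a description too. By limma, 0 passed adjustment in the first 4 of these comparisons, where 0.1%, 0%, 0.0586% and 0.109% of all genes did. In the last, 1 gene passed with Sesn3 set aside, where 0.862% of all genes did.

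That gene was Cdkn1a, which encodes the cell cycle inhibitor p21 and stood in the list of glucocorticoid-responsive genes. Cdkn1a rose in KO by 1.48 on the log2 scale averaged over diets (SE 0.24, limma adjusted p = 0.025), from 9.25 ± 2.74 FPKM in WT chow and 11.02 ± 2.996 FPKM in WT high fat to 27.0 ± 11.1 FPKM in KO chow and 35.1 ± 14.2 FPKM in KO high fat (SD, n = 3 each). The call was lost when WT chow 1 (adjusted p = 0.088), WT high fat 1 (0.051), KO chow 3 (0.053), KO high fat 1 (0.067) or KO high fat 2 (0.069) was left out. Sesn3, a sestrin that acts on nutrient signalling, was at 0.460 to 0.994 FPKM in the 6 WT libraries and 1.45 to 3.53 FPKM in the 6 KO libraries. It met the filter of 1 FPKM in 3 samples only through the KO, where it was high, so its values are a description and its p is not given.

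Several of the genes named here came from the glucocorticoid-responsive list. For diet in WT its 10 genes ran from a log2 fold change of -0.38 for Fkbp5 to 1.44 for Pdk4, with a median of 0.17. Among the list genes, the 3 with the lowest p in each comparison between 2 groups are named. For diet in WT they were Per1, a clock gene that glucocorticoids induce, at 0.86 (SE 0.18, limma adjusted p = 0.11), Pdk4, which restrains pyruvate oxidation, at 1.44 (SE 0.33, adjusted p = 0.14), and the mitochondrial NADPH source Idh2 at 0.65 (SE 0.18, adjusted p = 0.22). For diet in KO they were the pentose phosphate enzyme Tkt at -1.58 (SE 0.32, limma adjusted p = 0.16), Foxo1 at -0.52 (SE 0.13, adjusted p = 0.35) and the biliverdin reductase Blvra at 0.34 (SE 0.09, adjusted p = 0.36). On chow KO minus WT was 1.41 for Cdkn1a (SE 0.34) and 1.22 for Tkt (SE 0.32), each with a limma adjusted p of 0.26, and the place of Sesn3 beside them rests on the same filter. On high fat it was -0.50 for the glutathione transferase Gstk1 (SE 0.09, limma adjusted p = 0.060), 1.55 for Cdkn1a (SE 0.34, adjusted p = 0.082) and 0.52 for the glutathione peroxidase Gpx1 (SE 0.13, adjusted p = 0.096).

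**Figure D5:**
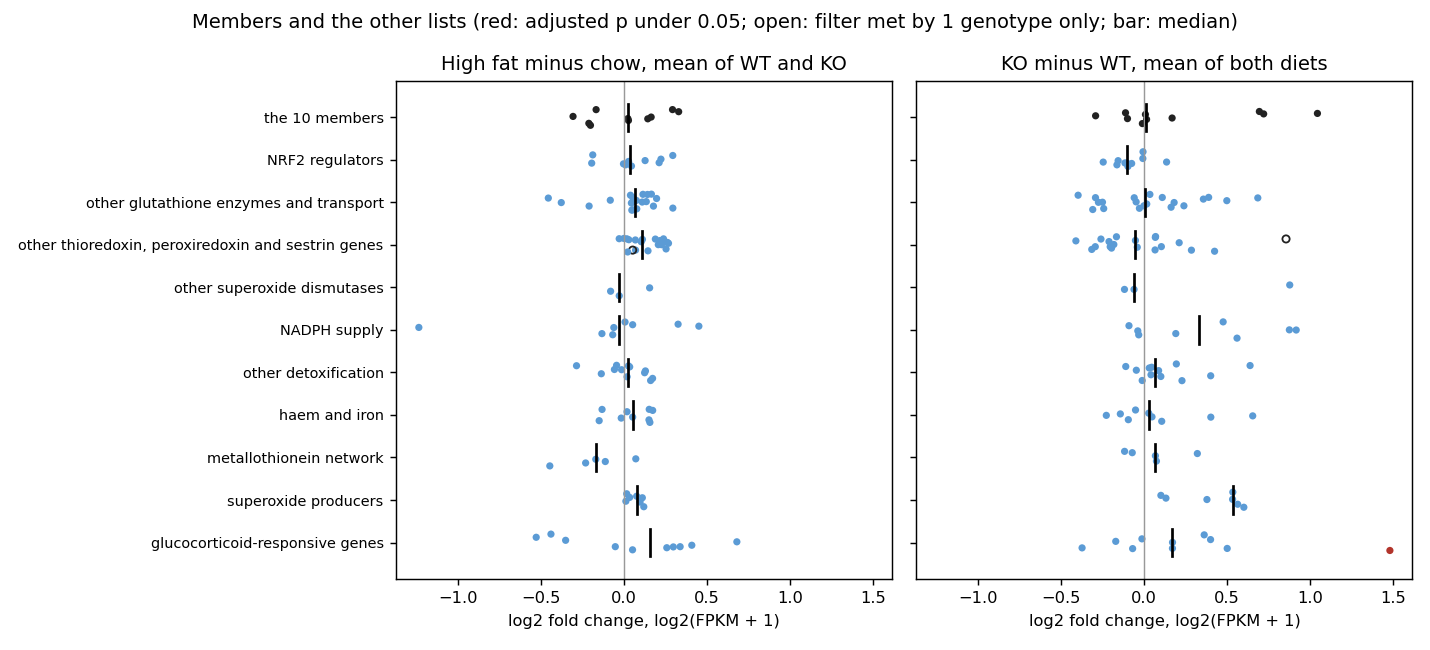
Each point is 1 gene, placed by its log2 fold change on the log2(FPKM + 1) scale for diet averaged over genotypes (left) and for genotype averaged over diets (right), in the 10 members and 10 other lists, with vertical position jittered within a row. The bars are medians, red marks Cdkn1a, past an adjusted p of 0.05 and higher in KO, and the open circle marks Sesn3, which met the filter only through the KO libraries.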

How the data were processed

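Total RNA of proximal hind limb muscle was made into TruSeq libraries and sequenced by the authors, who deposited FPKM per gene for each sample. The submitters' processing notes name TopHat2 2.0.8b, Cuffdiff 2.1.1 and the build mm10, without stating their roles. Read counts were not used here, so depth was only estimated relative to the shallowest library, and the number of fragments behind each FPKM value is unknown. Groups followed sample titles.

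Repeated symbols were represented by their most abundant row. Values were analysed as log2(FPKM + 1) after keeping genes with at least 1 FPKM in at least 3 samples. Group means were fitted with limma 3.58.1 (R 4.3.3, trended moderation of variance), with p adjusted by Benjamini-Hochberg over 11945 genes at a threshold of 0.05. Log2 fold changes are on the log2(FPKM + 1) scale and understate those of low genes. Correlations used 100000 permutations. The fits were tested on simulated data. The members, gene lists and tests were chosen with earlier results of these data known. Genes other than members were named as the 3 with the lowest p per comparison in those lists, plus those past the threshold. Deletion markers, positions (GENCODE M21) and cell markers were read as descriptions. Alternatives covered scaling, pseudocount, filter, variance, block, groups fitted, the genotype field and each library left out.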

Additional observations from a re-analysis of the deposited data

How the results depend on the processing

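Across the alternatives other than leaving out a library, the number of members past an adjusted p of 0.05 stayed at 0 in all 7 comparisons, the replicate block included. Leaving out each library in turn gave 0 to 2 members for genotype averaged over diets and 0 in the other comparisons. The correlation of Gclc with Gclm ranged from 0.41 to 0.71 across those omissions, and its adjusted permutation p was below 0.05 in 2 of 12. The 3 replicates per group and the unknown depth limit precision, and no test separates the tissue's cell types.

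Only taking genotype from the genotype field, which the deleted genes contradict in 6 samples, reversed directions. Under it the log2 difference was -0.22 for Hmox1 with diet in KO. For KO minus WT on high fat it was -1.09 for Hmox1, -1.18 for Mt2, 0.34 for Gstk1, -1.54 for Cdkn1a and -0.45 for Gpx1. For genotype averaged over diets it was -0.43 for Hmox1, -0.24 for Mt1, -0.45 for Mt2, 0.070 for Sod2, -0.46 for Cdkn1a and -0.29 for Sesn3. The Nqo1 difference between diet responses was -0.067. Groups set by that field mix KO and WT libraries, and the cause of each reversal was not tested.

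The same replicate numbers did not pair the samples, with correlations of same-numbered deviations from -0.81 to 0.39. The replicate block moved the count of all genes called from 12 to 7 for diet in WT, 7 to 4 for genotype on chow, 13 to 5 on high fat, 7 to 1 for diet averaged over genotypes and 103 to 40 for genotype averaged over diets. It put Per1 past the threshold for diet in WT (limma adjusted p = 0.036). Counts of all genes for genotype averaged over diets were 200 with quantile normalization, 42 without the filter and 0 by the genotype field, and ranged from 10 to 1200 with a library left out. For genotype on high fat they were 26, 24 and 0 under the same 3 settings, 8 with only the 2 groups fitted, 0 with at least 1 FPKM in every sample, and 4 to 82 with a library left out. For genotype on chow they were 0 by the genotype field and with at least 1 FPKM in every sample, 4 with only the 2 groups fitted, and 4 to 14 with a library left out. For diet in WT they were 3 with only the 2 groups fitted, 0 by the genotype field and 1 to 32 with a library left out, and for diet in KO 9 with quantile normalization, 6 without the filter, 15 with only the 2 groups fitted and 0 to 10 with a library left out. Diet averaged over genotypes gave 0 by the genotype field and 1 to 18 with a library left out, and the difference between diet responses gave 1 without the filter. Quantile normalization put Gstk1 past the threshold on high fat (adjusted p = 0.030), and without the filter Cdkn1a (0.053) missed it. In alternatives added after the data were seen, 11 genes were called for genotype averaged over diets without the 3 lymphocyte-rich chow libraries and 19 without WT high fat 1 and KO high fat 2, with 0 members in either. The adjusted p of Cdkn1a was then 0.22, with KO chow 2 alone for KO chow and its spread assumed to be that of the other groups, and 0.093. Without the chow libraries diet in WT gave 1 and diet averaged over genotypes 1, and without the high fat pair genotype on chow gave 4 and on high fat 5. The cause of these shifts in counts was not tested.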

Other observations

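Genes of the NADPH oxidase, the phagocyte complex that makes superoxide, were measured beside the members that remove it. For KO minus WT averaged over diets, and chosen after their values were seen, Cybb, the catalytic subunit, gave a log2 difference of 0.56 (SE 0.16, limma adjusted p = 0.075), its partner Cyba 0.60 (SE 0.22) and Ncf1 0.53 (SE 0.23), none past the adjusted threshold. The macrophage markers given in the report were also higher in KO averaged over diets, and their part was not tested. Of 8 genes for NADPH supply, 5 were higher in KO at an unadjusted p of 0.05 by limma, where 26.5% of all genes passed in either direction, and 0 passed adjustment, with the pentose phosphate genes G6pdx at 0.92 (SE 0.25), Tkt at 0.87 (SE 0.22) and Pgd at 0.56 (SE 0.15). Adipocyte markers also moved with genotype, and Tkt was at 53.5 and 64.9 FPKM in KO chow 1 and 3, the libraries with the highest adipocyte sums. It was at 30.7 FPKM in KO chow 2, with an adipocyte sum of 2089 FPKM. In KO high fat it was at 14.3 to 15.8 FPKM, with sums of 1810 to 2286 FPKM. The part of adipocytes in the Tkt difference was not tested.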
